A study of Mus musculus with 12 samples.

Results

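Chromatin accessibility at 29 genes of inhibitory neurons was examined in mice that lack Sgsh, a lysosomal enzyme gene. The genes are those of GABA synthesis and loading (Gad1, Gad2 and Slc32a1), peptides and other subtype markers (Pvalb, Sst, Vip, Npy, Cck, Calb2, Reln and Lamp5), lineage and identity genes (Lhx6, Dlx1, Dlx2, Dlx5, Dlx6, Adarb2 and Erbb4), GABA-A receptor subunits (Gabra2, Gabra4, Gabra5, Gabrb1, Gabrb2, Gabrg1, Gabrg3 and Gabrd), and GABA-B receptors with the postsynaptic scaffold gephyrin (Gabbr1, Gabbr2 and Gphn). They were chosen by name, and every peak that the authors' tables assign to one of them as the nearest gene was read. The 3 tables name 20631 genes in all. Of the 107627 peaks in NeuN+ nuclei, 268 belong to the 29 genes, as do 73 of 82577 in Olig2+ nuclei and 70 of 91770 in microglia.

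The measurement was ATAC-seq, in which a transposase cuts accessible DNA and the cut fragments are sequenced. Forebrains of C57BL/6 mice aged 4 months gave 12 libraries, with 2 labelled WT and 2 labelled SgshKO in each of 3 sorts. The microglia were live cells positive for CD11b and CX3CR1 with low CD45, whereas neuronal nuclei (NeuN+, negative for PU.1 and OLIG2) and oligodendrocyte-lineage nuclei (Olig2+, negative for PU.1 and NeuN) came from lightly fixed tissue. The labels do not give the kind of Sgsh allele, the sex, or whether a library came from 1 animal or a pool, and nothing in them says that libraries of a group came from separate animals, so p-values measure the spread between these libraries only.

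Inhibitory neurons make GABA from glutamate with glutamate decarboxylase, load it into vesicles through the transporter encoded by Slc32a1, and release it onto ionotropic GABA-A and metabotropic GABA-B receptors. GABA-A receptors are pentamers assembled from many subunits, and gephyrin anchors a large share of them at inhibitory synapses. Receptor and scaffold genes are used by excitatory and inhibitory neurons alike, whereas the Gad and Dlx genes are characteristic of inhibitory neurons. Peptide genes such as Sst and Vip mark interneuron subtypes. The NeuN+ sort did not separate these kinds of neuron.

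The promoters of 5 of these genes are shown because their start-site peaks carry the results described next: Gad1, Dlx1, Gabbr2 and Gphn changed differently in the sorts, and Gabra5 is a receptor subunit whose peaks fell in NeuN+ nuclei. Each is 300 bases of RefSeq sequence (GRCm38.p6, the assembly also called mm10), written 5′ to 3′ on the strand of the gene. It runs from 250 bases before a transcription start site of the gene to 50 after it. In Gad1, Dlx1, Gabra5 and Gphn this site lies inside the span of the gene, which begins at 57591016 for Gabra5 and at 78217325 for Gphn. Capitals mark exact matches, on either strand, to any of 8 strings. These are the GC box GGGCGG, the CCAAT box, the TATA box read as TATAAA, the cAMP response element TGACGTCA, the core CGCATGCG of the NRF1 motif, the E-box CACGTG, the homeodomain core TAATTA and the AP-1 string TGACTCA. None of these strings contains another.
Gad1, chr2:70561879-70562178, plus strand: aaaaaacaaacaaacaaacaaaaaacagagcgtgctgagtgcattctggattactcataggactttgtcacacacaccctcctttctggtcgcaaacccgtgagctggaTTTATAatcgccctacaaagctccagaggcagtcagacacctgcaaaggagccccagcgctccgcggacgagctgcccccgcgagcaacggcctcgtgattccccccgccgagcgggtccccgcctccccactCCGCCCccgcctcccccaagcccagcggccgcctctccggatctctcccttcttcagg
Dlx1, chr2:71529195-71529494, plus strand: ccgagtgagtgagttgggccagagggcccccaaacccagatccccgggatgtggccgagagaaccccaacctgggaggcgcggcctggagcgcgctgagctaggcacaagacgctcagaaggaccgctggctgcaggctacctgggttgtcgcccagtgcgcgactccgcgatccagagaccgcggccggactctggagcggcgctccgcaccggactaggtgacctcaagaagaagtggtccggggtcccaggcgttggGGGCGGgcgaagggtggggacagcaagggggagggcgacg
Gabra5, chr7:57510010-57510309, minus strand: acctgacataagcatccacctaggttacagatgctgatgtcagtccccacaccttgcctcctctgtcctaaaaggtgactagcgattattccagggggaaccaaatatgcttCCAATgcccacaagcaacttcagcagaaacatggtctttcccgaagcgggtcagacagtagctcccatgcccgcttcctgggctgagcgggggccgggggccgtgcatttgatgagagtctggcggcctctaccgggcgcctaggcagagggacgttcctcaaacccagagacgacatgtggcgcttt
Gabbr2, chr4:46991665-46991964, minus strand: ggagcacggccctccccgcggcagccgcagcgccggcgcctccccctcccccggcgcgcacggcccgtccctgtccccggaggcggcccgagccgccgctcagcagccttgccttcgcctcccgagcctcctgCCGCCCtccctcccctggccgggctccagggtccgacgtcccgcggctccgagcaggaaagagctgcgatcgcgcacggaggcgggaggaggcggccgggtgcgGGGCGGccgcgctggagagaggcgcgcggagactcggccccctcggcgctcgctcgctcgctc
Gphn, chr12:78226405-78226704, plus strand: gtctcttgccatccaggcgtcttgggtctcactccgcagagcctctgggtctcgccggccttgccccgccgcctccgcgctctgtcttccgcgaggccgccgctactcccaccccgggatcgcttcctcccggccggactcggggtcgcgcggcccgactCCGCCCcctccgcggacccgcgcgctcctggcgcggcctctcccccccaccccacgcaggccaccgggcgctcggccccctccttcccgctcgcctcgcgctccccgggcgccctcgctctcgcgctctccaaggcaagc
The Gad1 window shares 230 bases with the peak in NeuN+ nuclei and 163 with that in Olig2+ nuclei. The Gabbr2 window shares 211 and 295 bases with those peaks, and the Gphn window 159 and 162. The Dlx1 window overlaps no NeuN+ peak and shares 186 bases with a peak in Olig2+ nuclei.

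RefSeq promoters were matched for 25 of the 29 genes, the exceptions being Calb2, Dlx5, Dlx6 and Gabrd. Their median GC content was 61.3% against 52.7% over 32851 mouse promoters of the same length, and they held a median of 17 CpG dinucleotides against 7. GC boxes were found in 13 of the 25 against 35.7% of all promoters. CCAAT was found in 11 of 25 (37.4% of all), and TATAAA in 2 (13.6%), one of them Gad1. The cAMP response element string was found in 1, the Sst promoter (1.8% of all). E-boxes were found in 3 (7.2%), TAATTA in 2 (5.3%), TGACTCA in 1 (5.2%) and CGCATGCG in 0 (1.9%). The 5 windows differ in composition: the Gabbr2 and Gphn promoters have 80.3% and 77.0% GC with 46 and 42 CpG, and the Gabra5 promoter has 56.7% GC with 13 CpG.

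Library totals were 17653808 and 17706971 tags in the WT NeuN+ libraries and 14326703 and 15750361 in the SgshKO ones. The peaks held 26.7% and 25.9% of WT tags and 21.5% and 21.2% of SgshKO tags, so that SgshKO neuronal libraries were shallower and had fewer of their tags in peaks. In Olig2+ nuclei the share in peaks was 30.9% to 31.8%, and in microglia it ranged from 48.7% to 67.4%. The median peak of the 29 genes held 17 to 20 reads per NeuN+ library, 28 to 32 per Olig2+ library and 19 to 35 per microglia library, which limits the precision of single peaks. Values below are tags per 10000000 in the library, called normalized tags. Start-site peaks had their centre within 1000 bp of a transcription start site, and distal peaks lay farther away. Within a table, a peak was called at an adjusted p under 0.05 by limma with Benjamini-Hochberg adjustment over all its peaks, on log2(tags + 1), which understates the changes of low peaks.

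Marker genes listed for each cell type described the sorts. In NeuN+ nuclei, 6 of 8 inhibitory markers had a start-site peak (none at Dlx2 or Lhx6), with summed levels of 75.1 to 78.2 normalized tags in WT and 49.6 to 52.7 in SgshKO. The 6 excitatory markers all had one there, with summed levels of 257 to 298.5 in WT and 141 to 144.5 in SgshKO. Markers of other cell types were present in NeuN+ nuclei too. There 2 of 6 oligodendrocyte markers had a start-site peak, with summed levels of 84.4 and 72.3 in WT and 38.4 and 36.2 in SgshKO. So did 2 of 4 oligodendrocyte precursor markers (31.2 and 30.5 against 17.45 and 19.7) and 1 of 6 astrocyte markers (62.3 and 57.0 against 44.0 and 34.9). Start-site peaks of microglial (0 of 6) and endothelial (0 of 4) markers were absent from both nuclei tables, and those of excitatory markers (0 of 6) from the Olig2+ table. In Olig2+ nuclei 2 of 8 inhibitory markers, Gad1 and Dlx1, had a start-site peak, with summed levels of 24.0 to 29.1 in WT and 45.9 to 47.4 in SgshKO. The start-site peak of Sgsh itself went from 34.6 and 22.6 normalized tags in WT to 9.07 and 13.3 in SgshKO NeuN+ nuclei (limma adjusted p = 0.0026). The peak nearest its start held 65.9 and 74.2 against 60.9 and 69.1 tags in Olig2+ nuclei and 184 and 162 against 257 and 259.9 in microglia, and was called in neither (limma adjusted p = 0.65 and 0.20). None of this says whether the gene product was lost.

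Start sites of the inhibitory genes lost accessibility in SgshKO neuronal nuclei, at about the rate of the whole table. Of 37 start-site peaks at 24 of the genes, 18 peaks of 14 genes fell and 0 rose, that is 48.6% lower. Among all 23397 start-site peaks of the table, 44.9% were called lower and 1.74% higher, so the share is near the background. The median log2 change was -0.63 for the 37 peaks and -0.53 for all start-site peaks, against -0.23 for all peaks of the table. Both SgshKO libraries lay below both WT libraries at 29 of the 37, among them all 18 called. Such separation therefore adds nothing to a call. Bulk nuclei cannot tell fewer inhibitory neurons from less accessibility in each nucleus. The share of tags in peaks was lower in the same SgshKO libraries. With libraries scaled to the tags in peaks, 11 of the 37 were called lower (29.7%, against 23.5% of all start-site peaks) and 0 higher. The median was then -0.36, against -0.25 over all start-site peaks. The median was -0.57 without WT replicate 1 (-0.50 for all) and -0.66 without WT replicate 2 (-0.57 for all). With either WT library left out the test called fewer of the 37, and fewer of all start-site peaks. Without SgshKO replicate 1 or replicate 2 it called 0 of the 37 and 0 of the table's 107627 peaks, although 15 and 21 of the 37 had an unadjusted limma p under 0.05. With the same SgshKO library left out and WT replicate 2 thinned by 10%, an alternative chosen after seeing the data, 16 and 17 were called, all lower.

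**Figure D1:**
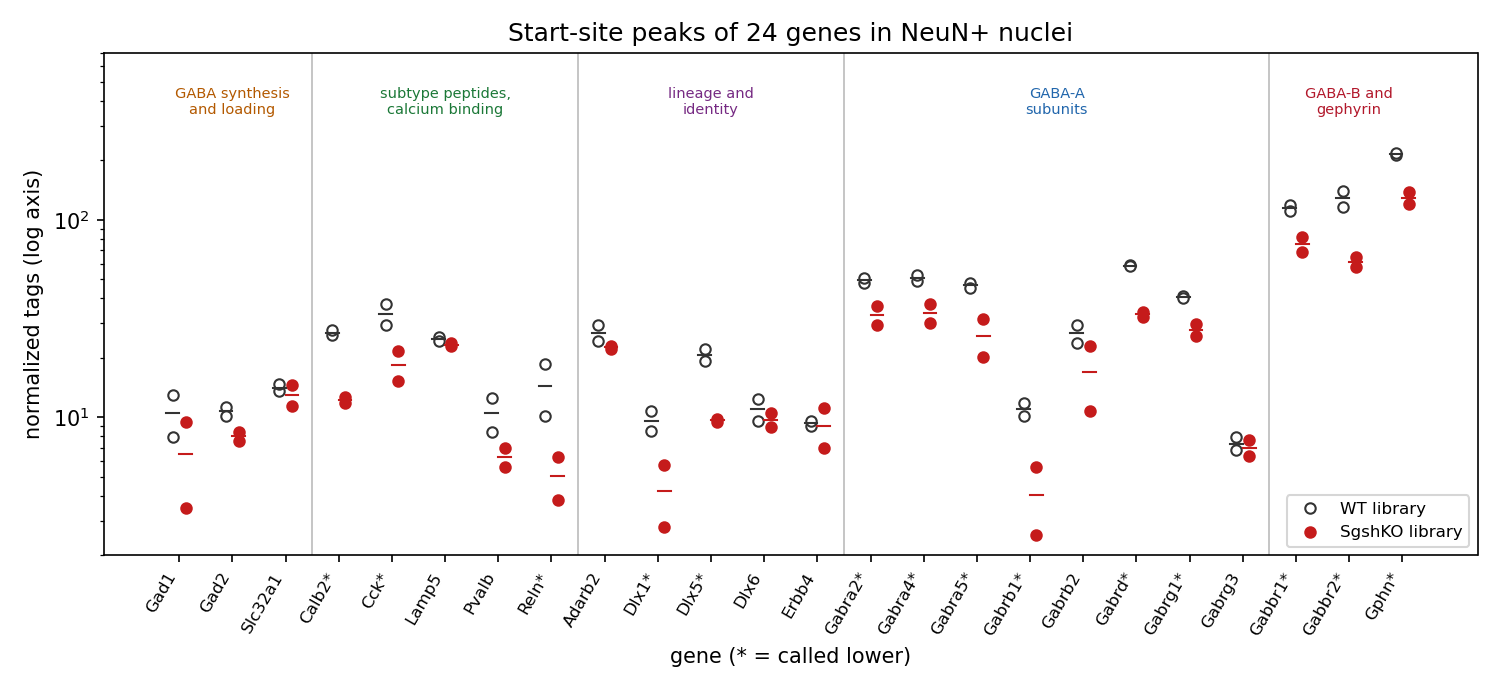
Normalized tags (log axis) in each NeuN+ library at the strongest start-site peak of the 24 genes that had one, grouped by role. Open points are the 2 WT libraries, filled points the 2 SgshKO libraries, short lines the group means, and asterisks mark genes whose plotted peak was called lower. Gabbr1, Gabbr2 and Gphn carry the highest levels, and the Gad1, Slc32a1, Dlx6, Erbb4 and Gabrg3 groups overlap.

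The genes that make and load GABA showed no called start-site change in neuronal nuclei. Gad1, which encodes the larger glutamate decarboxylase, had a weak peak with 13.0 and 7.91 normalized tags in WT and 3.49 and 9.52 in SgshKO. The groups overlapped, and the log2 change of -0.70 ± 0.40 (SE, n = 2 per group) was not called (limma adjusted p = 0.18). Gad2, the smaller decarboxylase, had 11.3 and 10.2 tags in WT and 8.38 and 7.62 in SgshKO (log2 change -0.38, not called). At Slc32a1, the vesicular GABA transporter, WT held 13.6 and 14.7 tags and SgshKO 14.7 and 11.4 (log2 change -0.12, not called, and 0.16 with scaling to tags in peaks). A distal peak 73671 bp before Gad2 rose from 3.40 and 3.39 tags in WT to 9.77 and 12.1 in SgshKO (log2 change 1.43, limma adjusted p = 0.0056), from few reads. So low in WT, it may be among the merged peaks only through the SgshKO libraries.

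Among the peptide and subtype genes, start-site peaks of Calb2, Cck and Reln fell (4 of 8 peaks, against 44.9% of all start-site peaks), while Sst, Vip and Npy had no start-site peak in any of the 3 tables. The NeuN+ sort holds excitatory neurons too, so these falls cannot be assigned to interneurons. Calb2, the calcium-binding protein calretinin, had 26.1 and 27.7 normalized tags in WT and 11.9 and 12.7 in SgshKO. The log2 change was -1.07 ± 0.24 (SE; limma adjusted p = 0.0034). Both WT libraries lay above both SgshKO libraries by more than the spread within either group. The neuropeptide gene Cck had 37.4 and 29.4 tags in WT and 21.6 and 15.2 in SgshKO at its start site (log2 change -0.83), and a neighbouring peak 645 bp upstream fell from 31.7 and 29.9 to 16.1 and 12.1 (log2 change -1.09). The call at the Cck start site was lost with scaling to tags in peaks (limma adjusted p = 0.083), median of ratios (0.053) and quantile normalization (0.081), and without WT replicate 1 (0.18). Reln, which encodes a secreted glycoprotein, had 18.7 and 10.2 tags in WT and 6.28 and 3.81 in SgshKO (log2 change -1.33 ± 0.36, SE; limma adjusted p = 0.010). That call was lost with quantile normalization (limma adjusted p = 0.052) and without WT replicate 1 (0.22), and the Calb2 call without WT replicate 2 (0.051). The second Reln start-site peak, at 8.50 and 6.21 against 8.38 and 7.62 tags, was not called. DESeq2 called none of the start-site peaks of Calb2, Cck and Reln named by level (DESeq2 adjusted p = 0.28, 0.43 and 0.31). Pvalb, the calcium-binding protein parvalbumin, had 12.5 and 8.47 tags against 5.58 and 6.98 (log2 change -0.64, not called). Lamp5 was nearly level, at 25.5 and 24.3 tags in WT and 23.7 and 22.9 in SgshKO (log2 change -0.09, and 0.20 with scaling to tags in peaks).

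Of the lineage genes, the homeodomain factors Dlx1 and Dlx5 fell at their start sites and Dlx6, Adarb2 and Erbb4 were not called. Dlx5 had 22.1 and 19.2 normalized tags in WT and 9.77 and 9.52 in SgshKO. The log2 change was -1.02 ± 0.27 (SE; limma adjusted p = 0.0086). Dlx1, its relative in interneuron specification, had 8.50 and 10.7 tags in WT and 2.79 and 5.71 in SgshKO (log2 change -1.07, limma adjusted p = 0.039, lost under each other scaling). Without WT replicate 1 the limma adjusted p was 0.099 for Dlx5 and 0.14 for Dlx1, and without WT replicate 2 it was 0.26 for Dlx1. DESeq2 called neither Dlx5 nor Dlx1 (DESeq2 adjusted p = 0.39 and 0.59). Dlx6, the neighbour of Dlx5, overlapped between genotypes at 9.63 and 12.4 against 10.5 and 8.89 tags. Adarb2, a marker of interneurons from the caudal ganglionic eminence, held 24.4 and 29.4 tags against 23.03 and 22.2 (log2 change -0.23, and 0.05 with scaling to tags in peaks). Erbb4, the neuregulin receptor of interneurons, held 9.06 and 9.60 against 11.2 and 6.98 tags, with no separation. Lhx6, the factor of interneurons from the medial ganglionic eminence, had 0 peaks of any kind in the NeuN+ table, and Dlx2 had distal peaks only.

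GABA-A subunit genes fell at 7 of 15 start-site peaks in NeuN+ nuclei (46.7%, against 44.9% of all), with a median log2 change of -0.63, and those 7 belonged to 6 of 8 genes. Gabrd, the delta subunit of extrasynaptic receptors, fell from 58.9 and 58.2 normalized tags in WT to 34.2 and 32.4 in SgshKO. The log2 change was -0.80 ± 0.17 (SE; limma adjusted p = 0.0022). Gabra5, an extrasynaptic alpha subunit abundant in hippocampus, fell from 48.2 and 45.2 to 31.4 and 20.3 tags at the promoter printed above (log2 change -0.86, limma adjusted p = 0.0062), and from 18.1 and 25.4 to 6.98 and 11.4 at a peak 696 bp downstream (log2 change -1.17). SgshKO libraries lay below WT at both peaks, with a wider spread between the SgshKO pair than between the WT pair at the promoter. Gabra2 (48.2 and 50.8 against 29.3 and 36.8 tags), Gabra4 (49.3 and 52.5 against 30.0 and 37.5) and Gabrg1 (41.4 and 40.1 against 25.8 and 29.8) had log2 changes of -0.58, -0.59 and -0.54, and these 3 calls were lost under each other scaling and in edgeR. Gabrb1 fell from 10.2 and 11.9 to 5.58 and 2.54 tags (log2 change -1.31, limma adjusted p = 0.013). Gabrb2, at 29.5 and 23.7 against 23.03 and 10.8 tags, was not called (log2 change -0.71, limma adjusted p = 0.072), and Gabrg3 overlapped at 6.80 and 7.91 against 7.68 and 6.35. Quantile normalization ended the calls of Gabrd, Gabra5 at its promoter and Gabrb1 (limma adjusted p = 0.062, 0.092 and 0.057). DESeq2 ended them too (DESeq2 adjusted p = 0.26, 0.32 and 0.42). It also ended the calls of Gabra2, Gabra4 and Gabrg1 (DESeq2 adjusted p = 0.61, 0.59 and 0.68). Leaving out WT replicate 1 or 2 ended those of Gabra5 (0.095 and 0.060), Gabrb1 (0.10 and 0.14), Gabra2 (0.13 and 0.16), Gabra4 (0.12 and 0.16) and Gabrg1 (0.21 and 0.16).

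The strongest start-site peaks of the set were those of the GABA-B receptor genes and gephyrin, where 5 of 6 peaks fell (44.9% of all start-site peaks did) with a median log2 change of -0.67 (-0.53 for all). Gabbr2, the subunit that carries the GABA-B receptor to the surface and couples it to G proteins, held 116 and 141 normalized tags in WT and 64.9 and 57.8 in SgshKO. The log2 change was -1.05 ± 0.14 (SE, n = 2 per group; limma adjusted p = 3.1e-05), with the SgshKO level of 61.3 ± 5.0 (SD) far below the WT level of 128 ± 17 (SD). Gphn, the scaffold gephyrin, fell from 212 and 218 to 139 and 120 tags at a peak 381 bp upstream (log2 change -0.73 ± 0.10, SE; limma adjusted p = 6e-05), and from 112 and 113 to 76.1 and 74.9 at its start (log2 change -0.57). Gabbr1, the subunit that binds GABA, fell from 120 and 111 to 81.7 and 68.6 tags at its start (log2 change -0.62 ± 0.13, SE; limma adjusted p = 0.0022), and from 31.7 and 39.0 to 20.9 and 15.9 at a peak 538 bp downstream (log2 change -0.91). In every one of these peaks both SgshKO libraries lay below both WT libraries, as at all 18 called start-site peaks of the set. Gabbr2 kept its call under each scaling and in edgeR and DESeq2, whereas the Gabbr1 call was lost with scaling to tags in peaks, quantile normalization and DESeq2, and without WT replicate 1 (limma adjusted p = 0.058). The Gphn call was lost with quantile normalization.

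**Figure D2:**
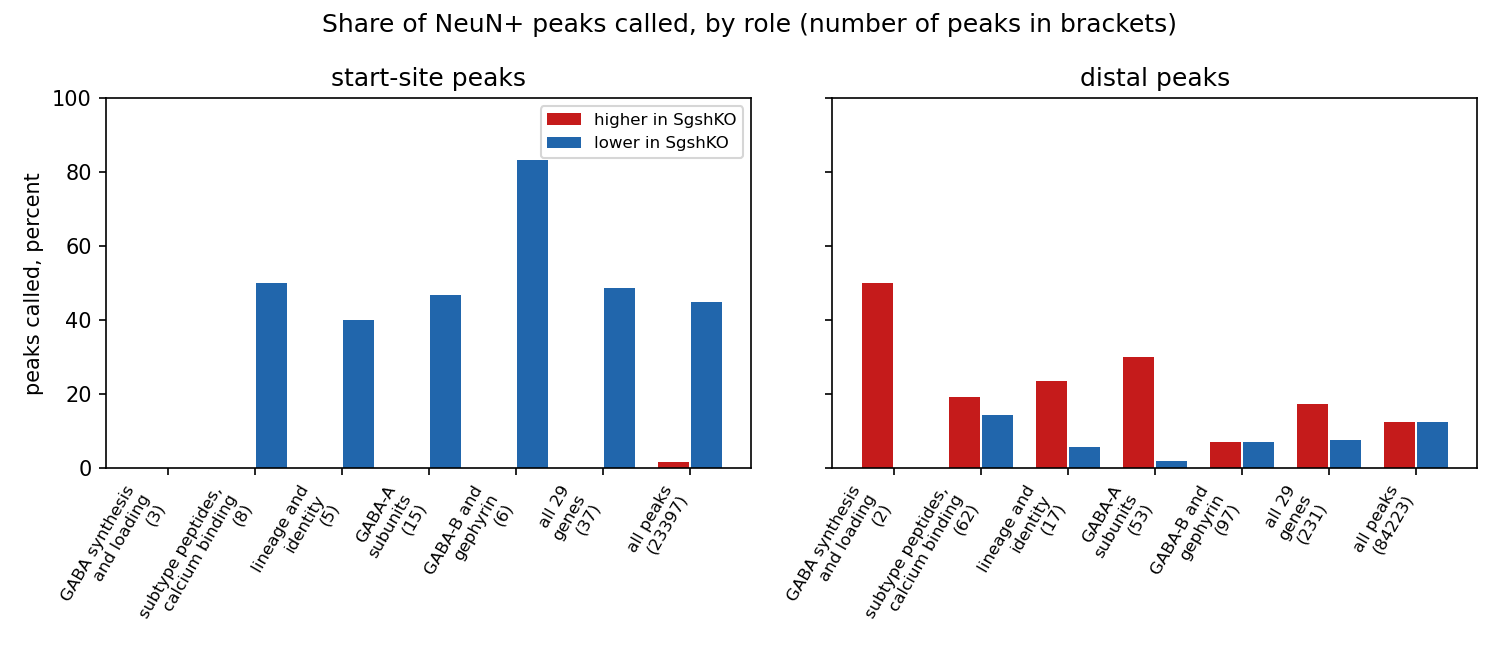
Percent of NeuN+ peaks called higher or lower in SgshKO, by role of the gene, with the number of peaks in brackets, for start-site and distal peaks. At start sites the 29 genes together (48.6% lower) stand near all peaks (44.9%), and in distal peaks the GABA-A subunit genes (30.2% higher) stand above all peaks (12.6%).

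Away from start sites the direction was mixed, and in NeuN+ nuclei 40 of 231 distal peaks rose and 18 fell. That is 17.3% higher and 7.79% lower, against 12.6% higher and 12.6% lower among all 84223 distal peaks, where 10601 were called in each direction. Peaks were merged over both genotypes, so a weak peak may be listed through 1 genotype only. Its change, in either direction, may then follow from that entry. The median log2 change of the 231 was 0.04, against -0.11 for all distal peaks. Gabbr2 alone has 70 of the 231, and without it 39 of 161 rose (24.2%) and 13 fell (8.07%), with a median of 0.21. With scaling to tags in peaks the split was 54 higher and 9 lower, against 21.2% and 4.79% of all distal peaks, whose median became 0.16. With median-of-ratios scaling it was 50 and 13 (18.2% and 6.15% of all), and with edgeR 53 and 12 (19.3% and 6.35% of all). The share of risen peaks was thus nearer that of all distal peaks under these settings. The calls numbered 21 without WT replicate 1 and 31 without WT replicate 2, and 0 without either SgshKO library, where no peak of the table passed. With WT replicate 2 thinned by 10% as well, they numbered 54 and 51.

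Distance from the start site moved with the direction of change, in the set as in the whole table. Between 1 and 10 kb, 2 of 39 peaks rose and 6 fell, against 6.22% and 16.9% of all such peaks. Between 10 and 100 kb, 15 of 102 rose (14.7%) and 9 fell, against 12.1% in each direction. Beyond 100 kb, 23 of 90 rose (25.6%) and 3 fell (3.33%), against 26.3% and 6.06% of all peaks that far out. The share of risen peaks beyond 100 kb was thus near that of all peaks at that distance.

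**Figure D3:**
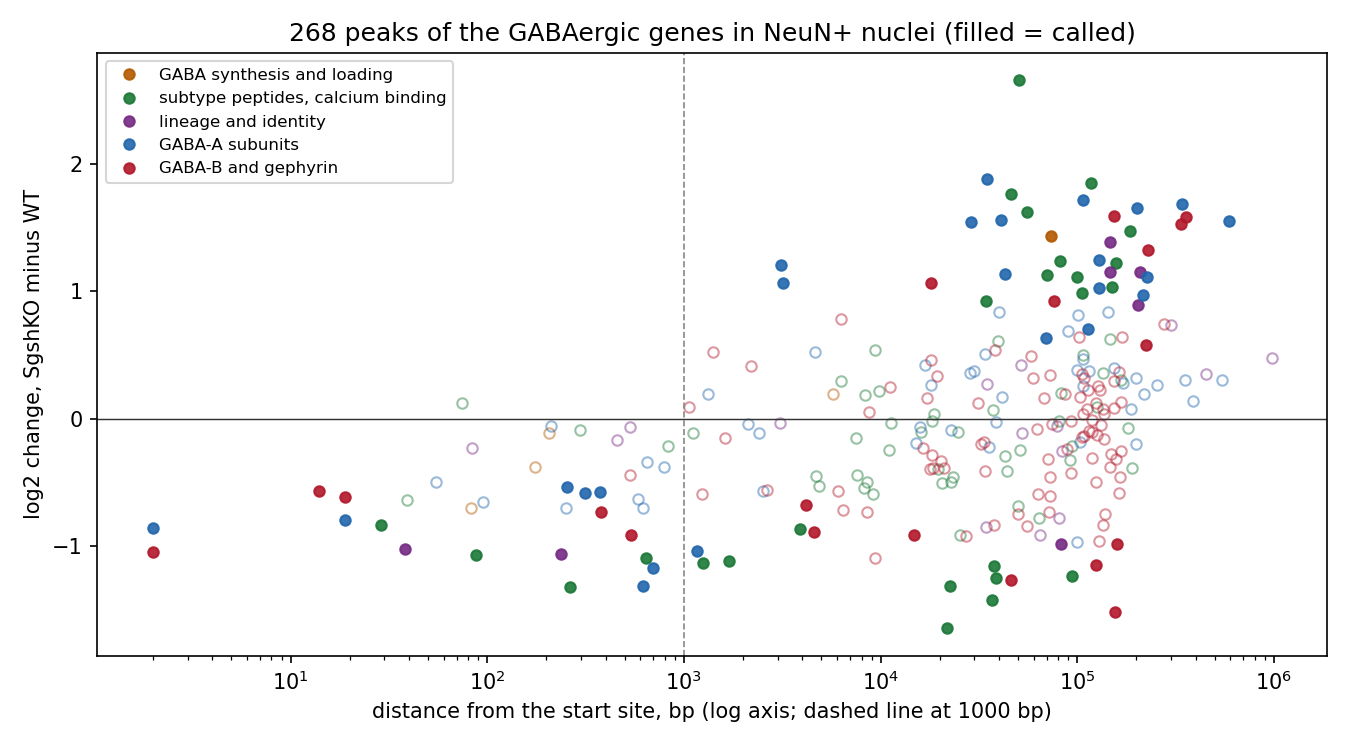
Log2 change (SgshKO minus WT) of the 268 peaks in NeuN+ nuclei against distance from the start site (log axis), coloured by role, with filled points for called peaks and a dashed line at 1000 bp. All 18 called peaks left of the line lie below 0, and 40 of the 58 called peaks right of it lie above 0.

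Distal peaks of GABA-A subunit genes rose far more often than they fell: 16 of 53 rose (30.2%) and 1 fell (1.89%), with a median log2 change of 0.37. Of all distal peaks 12.6% rose and 12.6% fell, with a median of -0.11. Beyond 100 kb 9 of 26 rose (34.6%, against 26.3% of all peaks that far out, with medians of 0.39 and 0.30). Between 10 and 100 kb 5 of 19 rose (26.3%, against 12.1%), and between 1 and 10 kb 2 of 8 (against 6.22%). The group was singled out after its count was seen. With either WT library left out it had fewer calls, as had all distal peaks. Without either SgshKO library it had 0. Gabra2 contributed 5 risen peaks. The strongest lay 41086 bp before its start (chr5:71136818-71137052, intergenic) and rose from 7.93 and 13.0 normalized tags in WT to 30.7 and 33.0 in SgshKO. The log2 change was 1.56 ± 0.26 (SE; limma adjusted p = 0.00037). Gabrb1 contributed 4, among them a peak in its intron 3 (chr5:71829048-71829296) that rose from 9.63 and 13.0 to 27.9 and 27.9 tags (log2 change 1.25 ± 0.25, SE; limma adjusted p = 0.0015). A Gabrg1 peak 590146 bp downstream of its start, in intergenic DNA, rose from 8.50 and 5.08 to 23.03 and 19.7 tags (log2 change 1.55, limma adjusted p = 0.0011). Gabra2, Gabrb1 and Gabrg1 lie close together on chromosome 5, between positions 70751047 and 72149572. They had 5, 4 and 2 of the 16 risen peaks, so most of these peaks belong to a single gene cluster. At such distances the named gene is only the one with the nearest start site. The single fallen peak (chr5:71701060-71701294) lay 1161 bp downstream of a Gabrb1 start site. That site is inside the gene, whose span begins at 71657921. The peak held 31.7 and 28.8 tags in WT and 16.8 and 12.1 in SgshKO (log2 change -1.04). It was not called by DESeq2 (DESeq2 adjusted p = 0.28) or, with limma, without WT replicate 1.

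Subtype genes split by locus, with 12 distal peaks higher (19.4%) and 9 lower (14.5%) of 62, against 12.6% each way of all distal peaks. The neuropeptide gene Npy had 5 of 11 distal peaks higher and 0 lower. The strongest, 184874 bp upstream (chr6:49637719-49637953, intergenic), rose from 10.8 and 13.0 normalized tags to 29.3 and 40.6 (log2 change 1.47 ± 0.25, SE; limma adjusted p = 0.00033). Cck went the other way, with 5 of 22 distal peaks lower and 0 higher, at 10.7 to 16.9 tags in the WT libraries and 1.40 to 9.07 in the SgshKO libraries. Calb2 had both of its distal peaks lower, and Reln had 2 of 5 higher. Lamp5 had 4 higher and 2 lower of 15, and its strongest fallen peak (chr2:135957824-135958070, intron 16 of Plcb4) went from 25.5 and 19.8 to 10.5 and 7.62 tags (log2 change -1.24, limma adjusted p = 0.0033, and 0.076 without WT replicate 1). DESeq2 did not call that Lamp5 peak (DESeq2 adjusted p = 0.23). A Vip peak 50663 bp from its start had the largest change of any peak of the set, from 1.70 and 0.56 tags in WT to 14.0 and 10.2 in SgshKO (log2 change 2.65, limma adjusted p = 0.00016), on very few WT reads. A region this low in WT may be among the merged peaks only through the SgshKO libraries. Its rise may then follow from that entry.

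In the lineage group 4 of 17 distal peaks rose (23.5%) and 1 fell (5.88%), against 12.6% each way of all distal peaks. All 4 risen peaks were those of Adarb2, which had 5 in all. One at chr13:8056181-8056429 rose from 4.53 and 8.47 normalized tags to 15.4 and 20.95 (log2 change 1.39, limma adjusted p = 0.0044), and one at chr13:7994269-7994477 from 5.66 and 10.2 to 21.6 and 15.2 (log2 change 1.15, limma adjusted p = 0.012). The fallen peak lay 82797 bp before Dlx2, with 18.7 and 17.5 tags in WT and 9.07 and 8.25 in SgshKO (log2 change -0.98, limma adjusted p = 0.013). These 3 peaks, like the other distal peaks named by rule, were called peaks chosen for large changes and groups that did not overlap. Their size and separation thus follow from the choice. DESeq2 called none of the 3 (DESeq2 adjusted p = 0.062, 0.12 and 0.45, Dlx2 last). Without WT replicate 1 none of the 3 was called (limma adjusted p = 0.080, 0.16 and 0.10 in the order given, Dlx2 last), and the Dlx2 peak was not called without WT replicate 2 (0.069) or with scaling to tags in peaks (0.067).

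GABA-B and gephyrin loci had 7 risen and 7 fallen distal peaks of 97 (7.22% each way, against 12.6% each way of all distal peaks). Each of the 6 called distal peaks of Gphn rose, and 5 of them were weak, with 1.70 to 6.23 normalized tags in the WT libraries. Those 5 may be among the merged peaks only through the SgshKO libraries. The other, 224655 bp before the start, rose from 32.3 and 32.8 to 44.0 and 54.6 tags (log2 change 0.58, limma adjusted p = 0.025). Gabbr1 had 2 fallen peaks in its intron 5. The stronger (chr17:37050468-37050682) held 64.0 and 74.0 tags in WT and 36.3 and 36.8 in SgshKO (log2 change -0.89 ± 0.16, SE; limma adjusted p = 0.00070), and the weaker (chr17:37049964-37050302) held 32.9 and 35.0 against 19.5 and 22.2 (log2 change -0.68). DESeq2 called neither peak (DESeq2 adjusted p = 0.13 and 0.57). The weaker one was not called under any other scaling (limma adjusted p = 0.10 to 0.19), by edgeR (0.12), or without either WT library (0.12 and 0.15). Gabbr2 had 5 fallen and 1 risen of 70. Its strongest fallen peak, in intron 1 (chr4:46976815-46977094), went from 30.6 and 22.03 to 14.0 and 12.7 tags (log2 change -0.91, limma adjusted p = 0.011). DESeq2 did not call this peak (DESeq2 adjusted p = 0.40). It was not called with scaling to tags in peaks (0.065), with quantile normalization (0.052) or without WT replicate 1 (0.18).

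Gene by gene, 7 of the 14 genes with a fallen start-site peak also had a risen distal peak (Reln, Gabra2, Gabra5, Gabrb1, Gabrg1, Gabbr2 and Gphn). In 5, a distal peak fell too (Cck, Calb2, Gabrb1, Gabbr1 and Gabbr2), and in 4 no distal peak was called (Dlx1, Dlx5, Gabra4 and Gabrd). A further 7 genes had risen distal peaks and no called start site (Gad2, Vip, Npy, Adarb2, Gabrb2, Gabrg3 and Lamp5), and in Lamp5 distal peaks fell too.

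Other genes of the same systems, listed apart from the 29, were counted in NeuN+ nuclei in the same way. Against 44.9% lower of all start-site peaks and 12.6% in each direction of all distal peaks, other GABA pathway genes had 0 start-site peaks higher and 7 lower of 17, and 11 distal peaks higher and 4 lower of 52. Other interneuron genes had 0 higher and 11 lower of 21 start-site peaks, and 19 higher and 10 lower of 108 distal peaks. Genes of excitatory neurons had 0 higher and 20 lower of 35 start-site peaks, and 16 higher (7.96%) and 37 lower (18.4%) of 201 distal peaks, with a median distal log2 change of -0.31 against 0.04 for the 29 genes. The difference between these lists was not tested.

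In Olig2+ nuclei 16 of the 29 genes had peaks, and 4 of 17 start-site peaks rose and 1 fell. The genotypes overlapped at 0 of these 5 called peaks. The shares over all 20120 start-site peaks of that table were 12.7% higher and 7.56% lower. Gad1 rose from 5.71 and 5.62 normalized tags in WT to 14.8 and 16.0 in SgshKO. The log2 change was 1.29 ± 0.32 (SE, n = 2 per group; limma adjusted p = 0.0048). Both SgshKO libraries lay far above both WT libraries, which were nearly equal, and the call held with any 1 library left out. Dlx1 rose from 2.07 and 3.07 to 8.61 and 9.31 tags at the peak that overlaps the printed promoter (log2 change 1.49, limma adjusted p = 0.0068), and its stronger peak 244 bp downstream, at 21.3 and 15.3 against 24.0 and 20.6, was not called. Calb2 rose from 17.1 and 16.9 to 29.5 and 29.3 tags (log2 change 0.76 ± 0.23, SE; limma adjusted p = 0.022), a call lost when any 1 of the 4 libraries was left out, with log2 changes of 0.75 to 0.77. Gphn rose at its start from 180 and 151 to 207 and 227 tags (log2 change 0.39 ± 0.10, SE; limma adjusted p = 0.0061, not called without WT replicate 2). Erbb4 was the start site that fell, from 46.2 and 50.6 to 35.1 and 27.9 tags (log2 change -0.61, limma adjusted p = 0.023, not called with quantile normalization or without either WT library or SgshKO replicate 2). In the same libraries the summed start-site level of 6 oligodendrocyte markers went from 2069 and 2059 normalized tags in WT to 1640 and 1665 in SgshKO, with a start-site peak at each of the 6. That of 4 oligodendrocyte precursor markers, again with a peak at each, went from 277.5 and 270.5 to 321 and 313.7. The 6 excitatory markers and 6 of the 8 inhibitory ones had no start-site peak, so that the inhibitory sum consists of Gad1 and Dlx1 alone. The part of the cell makeup of the sort in the values of the 29 genes was not tested.

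Distal peaks of the genes in Olig2+ nuclei numbered 56, of which 7 rose and 4 fell (12.5% and 7.14%), against 6.69% higher and 13.0% lower of all 62442. Erbb4 had 17 of them. Its strongest, 16596 bp before the start (chr1:69124526-69124785, intergenic), rose from 53.9 and 73.6 normalized tags to 114 and 115 (log2 change 0.85 ± 0.14, SE; limma adjusted p = 1e-04). In intron 1 of Erbb4, one peak rose from 13.0 and 15.3 to 33.8 and 27.9 tags (chr1:69059834-69060101, log2 change 1.07) and another fell from 56.0 and 48.6 to 30.1 and 35.9 (chr1:68955563-68955889, log2 change -0.65, not called without either WT library or SgshKO replicate 1). Reln, in its intron 2 (chr5:22247819-22248030), rose from 23.9 and 27.6 to 54.7 and 49.9 tags (log2 change 1.00 ± 0.19, SE; limma adjusted p = 0.00047). A Gabrd peak 10694 bp from its start rose from 111 and 106 to 161 and 158 (log2 change 0.55, limma adjusted p = 0.00068). A Lamp5 peak in intron 4 of Pak7 fell from 66.4 and 77.7 to 49.8 and 43.2 tags (log2 change -0.62, limma adjusted p = 0.0074, not called without WT replicate 2). An Sst peak 8204 bp from its start fell from 18.7 and 11.3 to 5.53 and 9.31 (log2 change -0.92, limma adjusted p = 0.049). Over both classes 16 of the 73 peaks were called with all libraries, and fewer without either WT library, as over the whole table. The median distal log2 change was then 0.01 without WT replicate 1 and -0.01 without WT replicate 2 (-0.14 and -0.13 for all distal peaks).

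**Figure D4:**
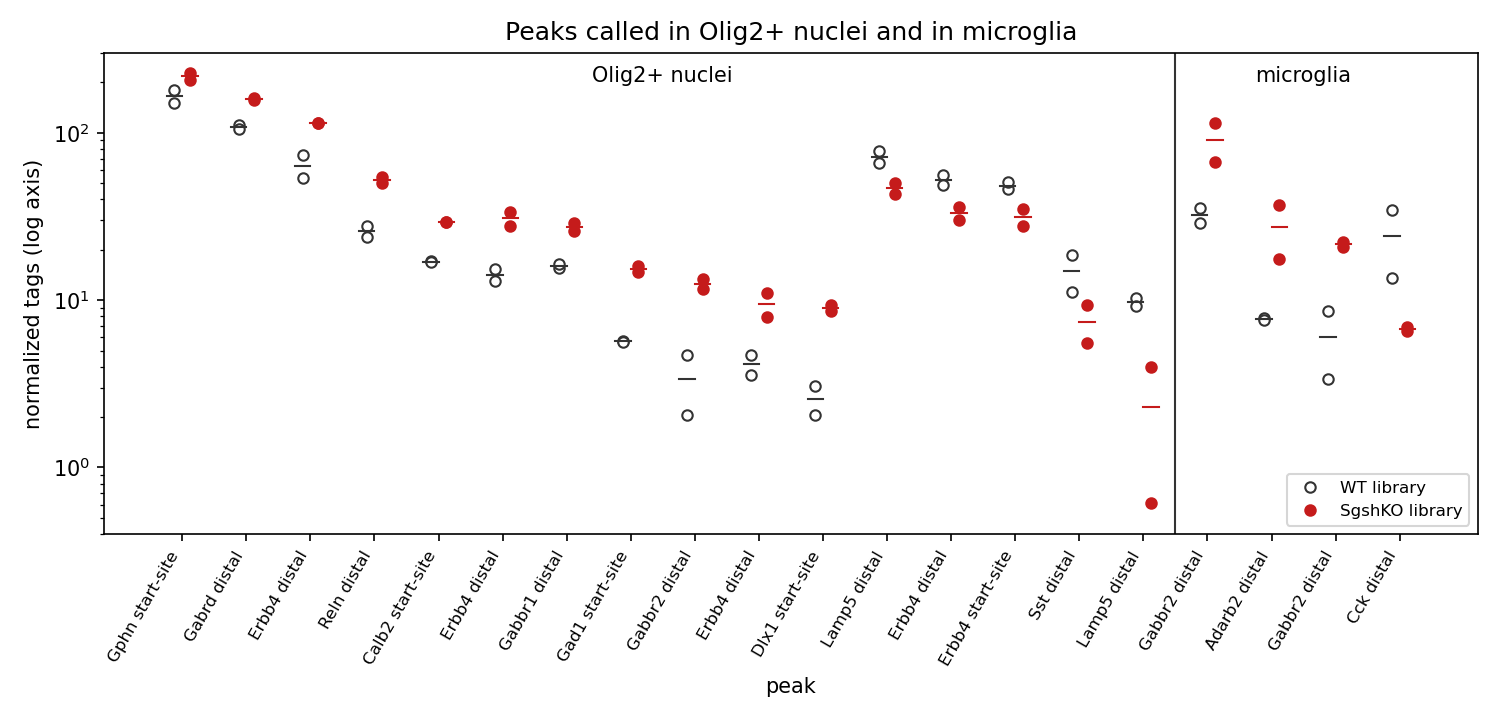
Normalized tags (log axis) in each library at the 16 peaks called in Olig2+ nuclei and the 4 called in microglia, with open points for WT, filled points for SgshKO and short lines for group means. In Olig2+ nuclei 11 peaks were higher and 5 lower in SgshKO, and in microglia 3 were higher and 1 lower.

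The genotype changes at shared peaks differed between neuronal and Olig2+ nuclei. Of 28 peaks of the genes found in both tables (one-to-one, with 50% reciprocal overlap), 11 had a lower change in NeuN+ than in Olig2+ nuclei and 0 a higher one, by the interaction of genotype and sort in 1 limma model of the 8 libraries. At start sites it was 8 of 11, against 49.3% lower and 1.73% higher of all 14434 shared start-site peaks. At distal peaks it was 3 of 17, against 15.0% lower and 4.76% higher of 15136. Gabbr2 had the smallest p: its start-site peak fell in NeuN+ nuclei and went from 10.9 and 8.18 to 16.6 and 16.0 normalized tags in Olig2+ nuclei, with a difference of changes of -1.77 ± 0.29 (SE; limma adjusted p = 1.1e-05). Calb2 differed by -1.82 ± 0.34 (SE; limma adjusted p = 8.1e-05), since it fell in neuronal and rose in Olig2+ nuclei. Gphn did likewise at its start, with a difference of -0.96 ± 0.16 (SE; limma adjusted p = 1.6e-05), and its upstream peak differed by -0.74 (limma adjusted p = 0.00032). With quantile normalization neither Gphn difference was called (limma adjusted p = 0.064 and 0.44). Gabbr1 differed by -1.15 (limma adjusted p = 0.0012) at the peak 538 bp downstream. Gad1 had the largest difference, -2.00 ± 0.52 (SE; limma adjusted p = 0.0027), although its change in NeuN+ nuclei alone was not called. The median difference over all shared start-site peaks was -0.62.

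**Figure D5:**
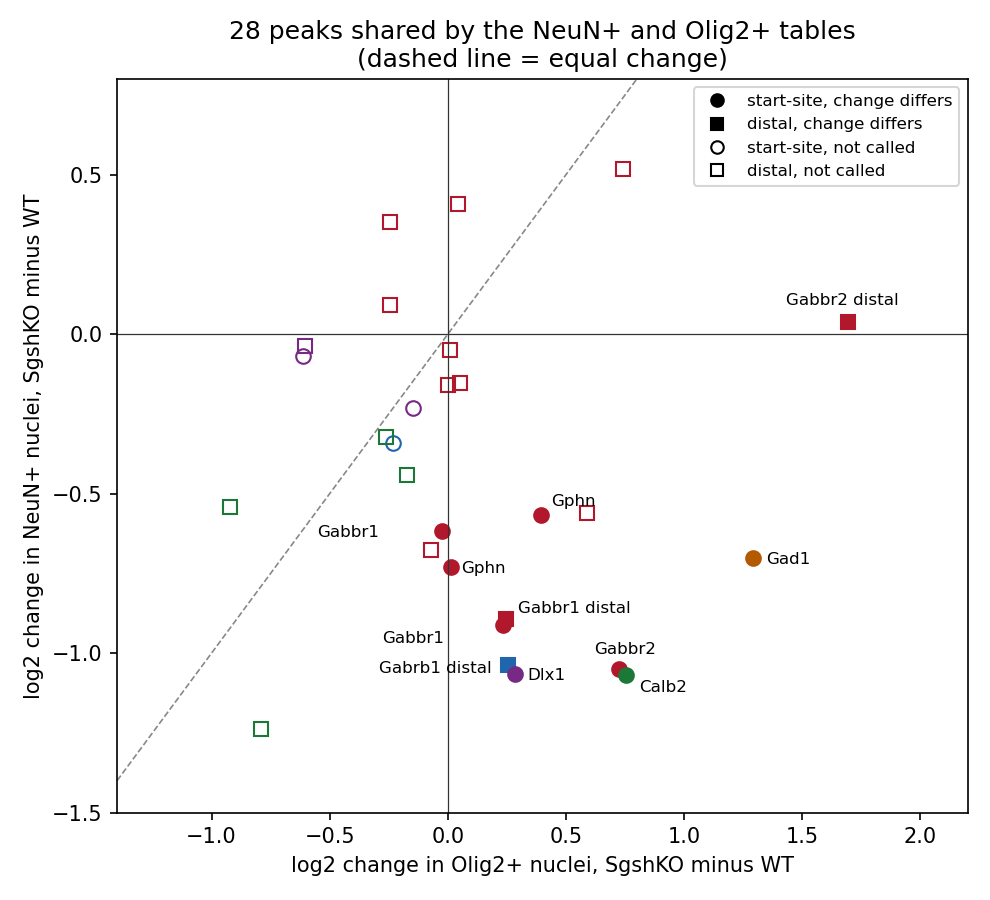
Log2 change (SgshKO minus WT) in NeuN+ nuclei against that in Olig2+ nuclei for the 28 shared peaks, with circles for start sites, squares for distal peaks, colours for roles as in the plot against distance, and the dashed line marking equal change. Filled symbols are the 11 peaks whose change differed, all of which lie below the line.

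Microglia showed few changes at these genes, and 13 of the 29 had peaks. Of 19 start-site peaks 0 were called, against 8.59% higher and 1.20% lower of all 23806. By edgeR 2 of the 19 were lower, by DESeq2 0, and 6 had an unadjusted limma p under 0.05. Of 51 distal peaks 3 rose and 1 fell, against 3.81% higher and 2.69% lower of 67926. Gabbr2 rose at a peak in its intron 1 (chr4:46885849-46886057), from 35.4 and 28.8 normalized tags in WT to 114 and 66.8 in SgshKO (log2 change 1.42 ± 0.36, SE; limma adjusted p = 0.0094, not called without either WT library). A second Gabbr2 peak, 86456 bp from the start, rose from 8.64 and 3.39 to 20.8 and 22.3 tags (log2 change 1.79, limma adjusted p = 0.021). An Adarb2 peak 430493 bp upstream rose from 7.78 and 7.62 to 37.2 and 17.6 (log2 change 1.62), and a Cck peak 15998 bp from the start fell from 34.6 and 13.6 to 6.93 and 6.50 (log2 change -1.56). Without WT replicate 1 or replicate 2, 0 of the 70 peaks were called. Far fewer peaks of the whole table passed there as well. The median distal log2 change was -0.45 without SgshKO replicate 1 (-0.35 for all distal peaks) and 0.09 without SgshKO replicate 2 (0.15 for all). More peaks were called in both of these fits, in the set as over the whole table. The count thus rests on single libraries.

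Levels in the 3 sorts are set side by side without a test, because the tables were normalized separately. Start-site peaks of Dlx1 and Dlx2 held more normalized tags in microglia than in neuronal nuclei: 46.4 to 77.1 over the 4 microglia libraries at Dlx1 against 2.79 to 10.7 in NeuN+ nuclei, and 25.1 to 58.8 at Dlx2, which had no start-site peak in either nuclei table. Lhx6 had start-site peaks in microglia only, the strongest with 10.4 to 16.9 tags. Gphn and Gabbr1 were accessible in every sort, with WT means of 215, 166 and 111 tags for Gphn and 115, 164 and 102 for Gabbr1 in NeuN+ nuclei, Olig2+ nuclei and microglia. Gabbr2 was highest in neuronal nuclei, with WT means of 128, 9.54 and 15.0 tags in the same order. Start-site peaks of Gad2, Slc32a1, Pvalb, Reln, Lamp5, Dlx5, Dlx6, Gabra2, Gabra4, Gabra5, Gabrb1, Gabrb2 and Gabrg3 were found in the NeuN+ table and in neither of the others.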

How the data were processed

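Accessibility was measured by single-end ATAC-seq in 12 libraries, 2 per genotype in each of 3 sorts. The submitters' processing notes name Bowtie2, HOMER and mm10, without stating versions, duplicate handling or read shifting. For each sort 1 table of merged peaks was deposited, with the nearest gene, its distance and an annotation. The deposited signal is tags per peak and library, scaled to a total of 10000000 per the file headers. The deposited Peak Score, a score from 540 to 1000, served only as a filter in an alternative. Whole reads were recovered from the totals in the headers for 100% of values within 0.01. All tag columns matched a sample title.

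Peaks were taken by their gene name in the tables, and a near neighbour may be the gene that a distal peak serves. Limma 3.58.1 in R 4.3.3 (intensity trend, two-sided, no covariate) compared log2(normalized tags + 1) over every peak of a table, and only rows of the 29 genes were read. Each ± is a standard error, or an SD where said, over 2 libraries per group. Differences between NeuN+ and Olig2+ nuclei came from an interaction term. The fits were tested on simulated data. The peaks named were the strongest start-site peak of each gene; the 6 largest increases and 6 largest decreases among called distal NeuN+ peaks (3 and 3 in the other sorts) with separate groups, a mean at or above the table median and at most 2 per gene; and 5 shared peaks by interaction p. Other named peaks were chosen after their values were seen. The genes and lists were chosen with earlier results of these data known. Promoter windows came from RefSeq GRCm38.p6.

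Alternatives were pseudocounts of 0.5 and 5, other scalings, leaving out the lowest 25% of peaks, only peaks with Peak Score 1000, a 500 bp window or the authors' promoter annotation, other overlaps (1 bp, 80%), a replicate block, leaving out each library, and edgeR 4.0.16 and DESeq2 1.42.0 on the recovered reads. On those reads edgeR called 14 of 37 start-site and 65 of 231 distal NeuN+ peaks, and DESeq2 called 2 and 10. Over all NeuN+ start-site peaks edgeR called 29.8% lower and 4.04% higher, and DESeq2 8.23% and 0.526%. Over all distal ones edgeR called 6.35% lower and 19.3% higher, and DESeq2 0.359% and 3.03%.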

Additional observations from a re-analysis of the deposited data

Results flagged for a closer look

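The change with genotype differed between NeuN+ and Olig2+ nuclei at 11 shared peaks of the genes, by the interaction term in limma over 8 libraries, and each value here is the log2 change in NeuN+ nuclei minus that in Olig2+ nuclei. Over all shared peaks, 49.3% of start-site peaks and 15.0% of distal ones were called lower in the same way, with median differences of -0.62 and -0.17. At start sites it was -2.00 for Gad1, -1.82 for Calb2, -1.77 for Gabbr2 and -1.35 for Dlx1 (limma adjusted p = 0.019). Gabbr1 had -1.15 at 538 bp downstream and -0.59 at its start (limma adjusted p = 0.0050), and Gphn had -0.96 at its start and -0.74 at 381 bp upstream. Distal peaks differed by -1.66 for Gabbr2 at 136737 bp (limma adjusted p = 0.0072), -1.29 for Gabrb1 at 1161 bp (limma adjusted p = 0.016) and -1.14 for Gabbr1 at 4609 bp (limma adjusted p = 0.0015). The distal Gabbr2 peak rose in Olig2+ nuclei, from 4.67 and 2.05 to 11.7 and 13.3 normalized tags, and was level in NeuN+ nuclei, with means of 11.3 and 11.7. Groups hold 2 libraries, too few to look for single libraries that stand apart.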

How the results depend on the processing

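Calls at start sites of NeuN+ nuclei (18) became 11 with the authors' promoter annotation, 11 with scaling to tags in peaks, 5 with quantile normalization and 2 with DESeq2, and 0 to 9 with each library left out. Distal NeuN+ calls (58) became 10 with DESeq2 and 0 to 31 with each library left out. GABA-A distal calls (17) became 11 without the lowest 25% of peaks, 9 with Peak Score 1000, 4 with DESeq2, and 0 to 11 with each library left out. Olig2+ calls (16) became 5 with DESeq2 and 7 to 17 with each library left out. Microglia calls (4) became 15 with scaling to tags in peaks (3 higher, 12 lower), 7 with median of ratios, 2 without the lowest 25%, 1 with Peak Score 1000, 8 with edgeR, 1 with DESeq2, and 0 to 20 with each library left out. Shared peaks with differing changes (11) became 7 at 80% overlap and 8 to 11 with each library left out. Calls over all peaks moved too. Of all NeuN+ start-site peaks 23.5% were lower with scaling to tags in peaks, 12.2% with quantile normalization and 8.23% with DESeq2, against 44.9%. Of all microglia distal peaks 11.3% were lower with scaling to tags in peaks, against 2.69%. The cause of these moves was not tested, beyond the fewer peaks or libraries that some settings leave.

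Peak by peak, the difference between replicates 1 and 2 was nearly uncorrelated between genotypes (0.0036, 0.00069 and 0.042 in NeuN+ nuclei, Olig2+ nuclei and microglia). These correlations cannot show a shift of a whole library. In microglia replicate 1 had the larger share of tags in peaks in both genotypes (55.75% against 48.68% in WT, 67.44% against 53.65% in SgshKO). With the replicate block the calls were 19 and 62 in NeuN+ nuclei, 19 for GABA-A distal peaks, 18 in Olig2+ nuclei, 9 in microglia and 12 for the difference. Calls rose over all microglia peaks too. With the block 7.62% of all distal peaks there were higher and 6.87% lower, against 3.81% and 2.69% without it.

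Among the peaks named by the fixed rule, those that changed sign under an alternative were not called. Peaks named otherwise were not followed across the alternatives. In NeuN+ nuclei Slc32a1, Gabrg3, Lamp5, Dlx6 and Erbb4 had log2 changes of 0.16, 0.20, 0.20, 0.11 and 0.20 with scaling to tags in peaks, 0.085, 0.13, 0.12, 0.032 and 0.13 with median of ratios, 0.094, 0.14, 0.12, 0.026 and 0.16 with edgeR, and 0.096, 0.15, 0.12, 0.025 and 0.17 with DESeq2. Adarb2 had 0.055 with scaling to tags in peaks, and Lamp5 0.061 with quantile normalization. With each library left out, the log2 change lay between -0.28 and 0.050 for Slc32a1, -0.18 and 0.058 for Gabrg3, -0.33 and 0.0028 for Dlx6, and -0.37 and 0.24 for Erbb4. Gabbr1 at its start in Olig2+ nuclei had 0.044 with median of ratios, 0.043 with edgeR and 0.044 with DESeq2. The median NeuN+ peak of these genes held about 20 reads per library, so single weak peaks are imprecise.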

Other observations

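GABA pathway genes outside the 29, taken as a list, had more fallen than risen distal peaks in Olig2+ nuclei, as did the whole table (6.69% higher, 13.0% lower, median log2 change -0.13). Of 39 such peaks 1 rose (2.56%) and 11 fell (28.2%) by limma with Benjamini-Hochberg adjustment, with a median log2 change of -0.37, against 0.06 for the distal peaks of the 29 genes there. At start sites 2 of 13 rose and 3 fell, against 12.7% and 7.56% of all. In microglia 2 of 18 distal peaks of that list rose and 0 fell, against 3.81% and 2.69% of all. Other interneuron genes had 8 of 74 distal peaks higher and 6 lower in Olig2+ nuclei, and 3 higher and 6 lower of 119 in microglia. The differences between lists were not tested.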
